A study of Mus musculus with 9 samples.

Results

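The miR-181 family of mouse serum was followed through 2 protocols that remove tRNA fragments before small RNA sequencing. The family was taken as 4 mature miRNAs, found by miRBase accession: miR-181a-5p (MIMAT0000210), miR-181b-5p (MIMAT0000673), miR-181c-5p (MIMAT0000674) and miR-181d-5p (MIMAT0004324). All 4 were present among the 876 mature miRNAs with a count in at least 1 library. The family and the contrasts between its members were picked with their scaled counts in view, so levels and differences of the 4 members are given as descriptions, with replicate spread and no test.

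The libraries came from serum of healthy male and female 129/SVj mice aged 2 to 9 months. All mice were sedated with tribromoethanol before blood was taken, and the labels name no other treatment. Each of 3 serum pools (A, B and C) has 1 library of each of 3 kinds: an undepleted control, RNA depleted with beads (biotinylated DNA probes against the 5′ tRNA fragments called tRNA-halves, pulled out on streptavidin) and RNA depleted with RNase H (DNA probes again, with an enzyme that cuts RNA paired to DNA). This gave 9 libraries in 3 groups of 3. The protocol describes aliquots of serum combined from 3 mice, so A, B and C may be aliquots of a single pool. They are called pools here as in the labels. The spread between them may thus be technical, and each library is a mixture of animals.

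MiRNAs guide Argonaute proteins to messenger RNAs, and pairing of the seed (bases 2 to 8 of the miRNA) does most of the target recognition. Members of a family share the seed and differ further towards the 3′ end, where pairing adds to binding but is less often required. The miR-181 family is best known from lymphocytes, in which miR-181a tunes the sensitivity of developing T cells to antigen, and it is also abundant in brain. In serum, miRNAs travel in vesicles and protein complexes, and their cell of origin cannot be read from a count.

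The sequences of the 4 members, printed 5′ to 3′ from RefSeq (GRCm38.p6), show what they share and where they differ. The capitals mark the seed.
miR-181a-5p: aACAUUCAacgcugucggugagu
miR-181b-5p: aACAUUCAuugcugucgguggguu
miR-181c-5p: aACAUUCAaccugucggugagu
miR-181d-5p: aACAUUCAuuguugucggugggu

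The seed was the same in all 4, and of 1679 mature mouse miRNA names in the RefSeq table no other carried it. Counted from 1 at the 5′ end, miR-181b-5p differed from miR-181a-5p by A9U, C10U and A21G, and its RefSeq entry is 1 base longer. miR-181d-5p carried the same 3 substitutions and C12U in addition, which is the only substitution between miR-181b-5p and miR-181d-5p. miR-181c-5p equals miR-181a-5p with the G at base 11 left out. The family thus holds a pair with the bases AC after the seed (miR-181a-5p and miR-181c-5p) and a pair with UU there (miR-181b-5p and miR-181d-5p). The longest run of bases shared by any pair was 12, for miR-181a-5p and miR-181c-5p. Reads under 15 bases had been discarded and no mismatch was allowed in mapping, so a read that lies within these mature sequences cannot match 2 members. The members were 22 to 24 bases long, with 10 or 11 G or C bases each.

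The hairpins lie in 3 clusters of GRCm38. miR-181a-5p and miR-181b-5p are encoded side by side on chromosome 1 (Mir181a-1, mature sequence at chr1:137966468-137966490, and Mir181b-1 at chr1:137966650-137966673, plus strand), within an intron of the non-coding gene Gm4258. Mir181b-1 also overlaps an exon of the lincRNA A430106G13Rik on the same strand. The same mature sequences are encoded again on chromosome 2 (Mir181a-2 at chr2:38852741-38852763 and Mir181b-2 at chr2:38853845-38853868, plus strand), opposite an intron of the protein-coding gene Nr6a1. miR-181c-5p and miR-181d-5p come from chromosome 8 (Mir181c at chr8:84178924-84178945 and Mir181d at chr8:84178759-84178781, minus strand), within an intron of Nanos3. The counts of miR-181a-5p and miR-181b-5p cannot be divided between their chromosome 1 and chromosome 2 copies.

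Depth set how far each group could be read. Control libraries held 205185 to 330676 miRNA counts, beads libraries 1822088 to 1995956 and RNase H libraries 1199 to 2040. Levels are given as CPM, the counts of a miRNA per 1000000 miRNA counts of its library. At these depths 3 counts corresponded to 9.07 to 14.6 CPM in control, 1.5 to 1.65 in beads and 1471 to 2502 in RNase H libraries. The share of tRNA in all annotated counts was 93.1% to 94.9% in control, 26.6% to 46.5% in beads and 21.5% to 31.2% in RNase H libraries, so it separates control from both depleted groups, which overlap each other. Its part in differences from control cannot be told apart from that of the protocol.

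In control libraries miR-181a-5p held most of the family's counts. Whether counts of different members compare as amounts in serum was not tested. The counts of this member were 2515, 3909 and 2959 in pools A, B and C, which is 12257, 11821 and 11898 CPM (mean 11992 ± 233, SD, n = 3). It ranked 16 of 572 miRNAs with a count in the group. miR-181c-5p followed at rank 44, with 545, 872 and 604 counts or 2656, 2637 and 2429 CPM. miR-181b-5p was at rank 53, with 318, 501 and 353 counts or 1549.8, 1515 and 1419 CPM. miR-181d-5p was the lowest, at rank 76, with 149, 231 and 157 counts or 726, 699 and 631 CPM. No pair of neighbours in this order overlapped between libraries, so the order miR-181a-5p, miR-181c-5p, miR-181b-5p, miR-181d-5p was seen in all 3 control pools.

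The 4 levels varied little between control pools. The coefficient of variation was 1.94% for miR-181a-5p, 4.90% for miR-181c-5p, 4.52% for miR-181b-5p and 7.12% for miR-181d-5p. Counting error alone, taken as the Poisson value at the mean count, would give 1.79%, 3.85%, 5.06% and 7.47%. The spread between control pools was thus close to counting error for each member. Intervals and floors here cover counting error only, since the reads were amplified by PCR and carried no molecular identifiers.

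The first comparison asks how capture of tRNA fragments on beads left the relative levels of the members. The level of miR-181a-5p moved by less than the spread between libraries, while miR-181b-5p and miR-181d-5p were lower in each beads library than in each control library. After beads, miR-181a-5p had 24508, 22882 and 21359 counts in pools A, B and C, or 12721, 11464 and 11722 CPM (mean 11969 ± 664, SD, n = 3). These values lie on both sides of the control values, and its rank was again 16. The edgeR log2 fold change against control, from the fit over 307 miRNAs, was 0.00 ± 0.066 (SE), with a 95% interval of -0.13 to 0.13.

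miR-181b-5p showed the largest difference in the family. Its counts were 1107, 1298 and 1060 after beads, or 575, 650.3 and 582 CPM (mean 602 ± 41.8 against 1495 ± 67.5 in control, SD, n = 3). The highest beads library was far below the lowest control library at 1419. The log2 fold change was -1.30 ± 0.098 (SE), a 2.47-fold lower relative level, and 5 of the 307 tested miRNAs lay below it. Its rank moved from 53 in control to 81 in beads libraries.

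miR-181d-5p had 751, 822 and 702 counts after beads, which is 389.8, 412 and 385 CPM (mean 396 ± 14.2 against 685 ± 48.8 in control, SD, n = 3). All 3 beads libraries were again below all 3 control libraries. The log2 fold change was -0.78 ± 0.12 (SE), 1.72-fold lower, and 17 tested miRNAs lay below it.

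miR-181c-5p had 4760, 4277 and 4035 counts, or 2471, 2143 and 2214 CPM (mean 2276 ± 172 against 2574 ± 126 in control, SD, n = 3). The groups overlapped, since beads pool A lay above control pool C, but within each of the 3 pools the beads library was lower than the control library (ratios of 0.930, 0.813 and 0.912). The log2 fold change was -0.17 ± 0.083 (SE), with a 95% interval of -0.33 to -0.01.

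All 4 members passed the filter on low counts. In edgeR's quasi-likelihood test 2 of 4 had a Benjamini-Hochberg adjusted p below 0.05, both lowered. Of all 307 miRNAs tested, 26.7% had such a p in either direction and 10.1% were lowered. Non-overlapping and lower groups were seen for 2 of 4 members and for 16.0% of the miRNAs tested, and higher ones for 0 of 4 members and 22.8%. As the members were picked on this contrast, nothing is read from these counts. The median log2 fold change was -0.48 over the 4 members and 0.04 over all miRNAs tested.

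**Figure D1:**
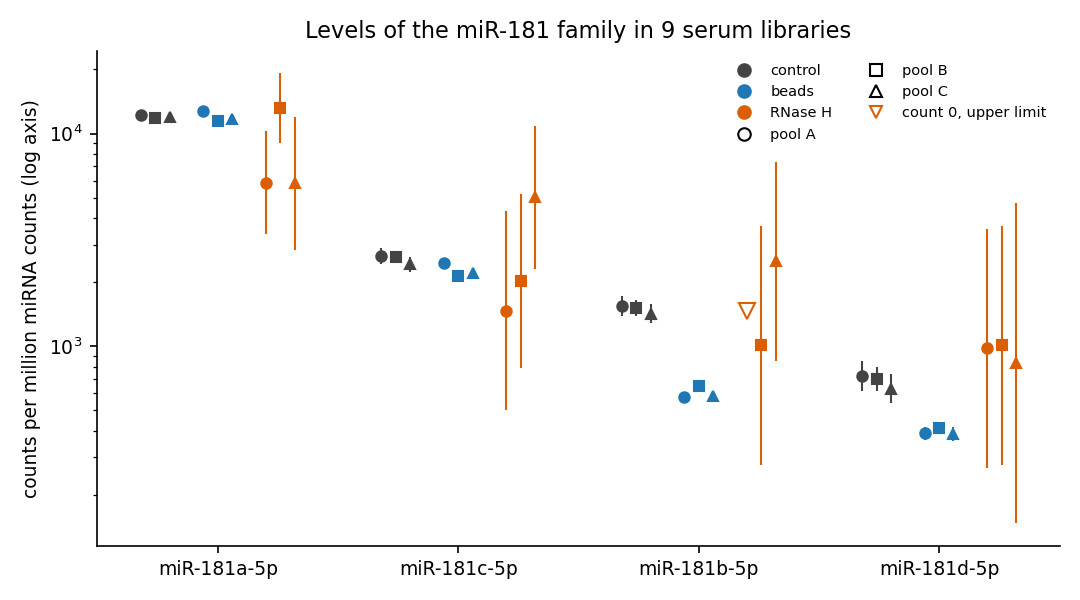
Levels of the 4 members in each library, in CPM of miRNA counts on a log axis, with points for single libraries (shape marks the serum pool, colour the group) and bars for Wilson 95% intervals. miR-181a-5p had means of 11992 in control and 11969 in beads libraries, miR-181b-5p and miR-181d-5p were lower in every beads than in every control library, and the RNase H libraries had wide intervals. The open triangle is the level of 3 counts, taken as the limit that a count of 0 allows.

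**Figure D2:**
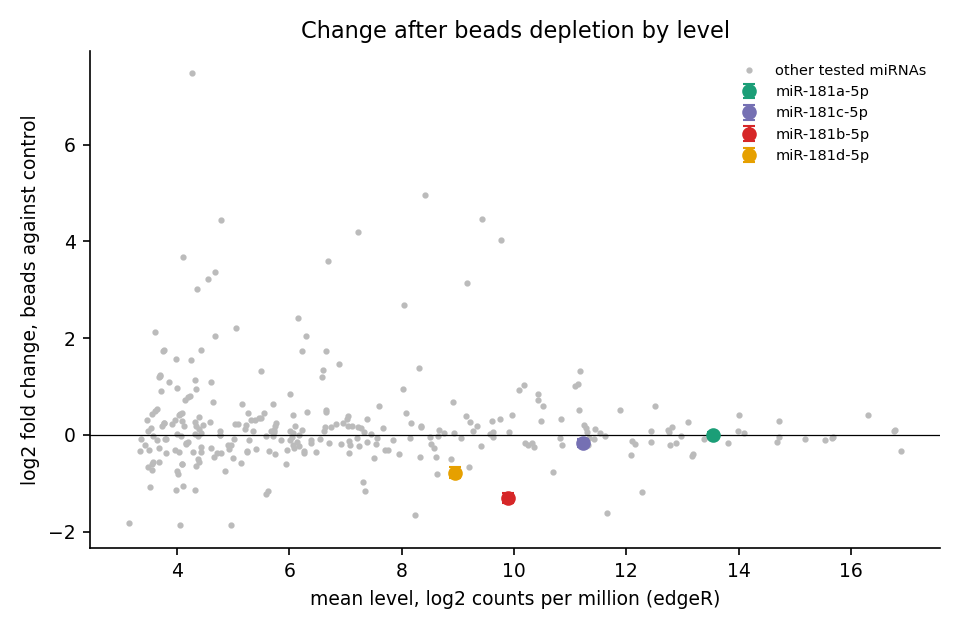
Log2 fold change of beads against control libraries for the 307 tested miRNAs, by mean level (log2 CPM, edgeR), with the 4 members in colour and bars of 1 SE. miR-181a-5p lay at 0.00 and miR-181c-5p at -0.17, while miR-181d-5p lay at -0.78 and miR-181b-5p at -1.30.

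Raw counts of all 4 members were higher with beads, as was the count of all miRNAs. Within a pool, the count of all miRNAs in the beads library was 9.39, 6.04 and 7.33 times that in the control library (pools A, B and C). miR-181a-5p rose along with it, by factors of 9.74, 5.85 and 7.22. miR-181c-5p rose by 8.73, 4.90 and 6.68, and miR-181d-5p by 5.04, 3.56 and 4.47. The factors for miR-181b-5p were 3.48, 2.59 and 3.00. In each pool the factors fell in the order miR-181a-5p, miR-181c-5p, miR-181d-5p, miR-181b-5p. All 4 members thus had more counts after beads than before, and miR-181b-5p, miR-181c-5p and miR-181d-5p gained less than the sum of all miRNAs in each pool. miR-181a-5p gained more than that sum in pool A and less in pools B and C.

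The ratio of members within a library does not depend on the scaling of that library. It comes from the same counts as the levels above. As miR-181a-5p was nearly unchanged, a ratio to it restates the fold change of the other member and is no separate finding. Per 100 counts of miR-181a-5p, the control libraries held 12.6, 12.8 and 11.9 counts of miR-181b-5p in pools A, B and C, and the beads libraries held 4.52, 5.67 and 4.96. The groups were separated by more than the range within either. On the log2 scale the ratio was -3.005 ± 0.055 in control and -4.31 ± 0.17 in beads libraries (SD, n = 3). The difference was -1.49, -1.18 and -1.27 in the 3 pools, with a mean of -1.31 ± 0.16 (SD, n = 3 pools).

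Per 100 counts of miR-181a-5p there were 5.92, 5.91 and 5.31 counts of miR-181d-5p in control and 3.06, 3.59 and 3.29 in beads libraries. The groups did not overlap, and the mean log2 difference was -0.79 ± 0.14 (SD, n = 3 pools). For miR-181c-5p the values were 21.7, 22.3 and 20.4 in control and 19.4, 18.7 and 18.9 in beads libraries. These groups did not overlap either, although the log2 difference was only -0.17 ± 0.073 (SD, n = 3 pools). All 3 members thus had a lower ratio to miR-181a-5p after beads, where 14.7% of the other 306 miRNAs tested had a lower and non-overlapping ratio to it and 22.9% a higher one. As the members were picked with these counts in view, nothing is read from this.

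The ratio between the members with UU after the seed also differed. miR-181b-5p and miR-181d-5p differ by C12U and by the last base of the RefSeq entries, and per 100 counts of miR-181b-5p the control libraries held 46.9, 46.1 and 44.5 counts of miR-181d-5p. The beads libraries held 67.8, 63.3 and 66.2. The mean log2 difference was 0.52 ± 0.059 (SD, n = 3 pools), so miR-181b-5p was lowered more than miR-181d-5p in each pool. Among the 4 pairs compared, the size of the log2 difference was largest for miR-181b-5p to miR-181a-5p and smallest for miR-181c-5p to miR-181a-5p, the pair with AC after the seed.

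**Figure D3:**
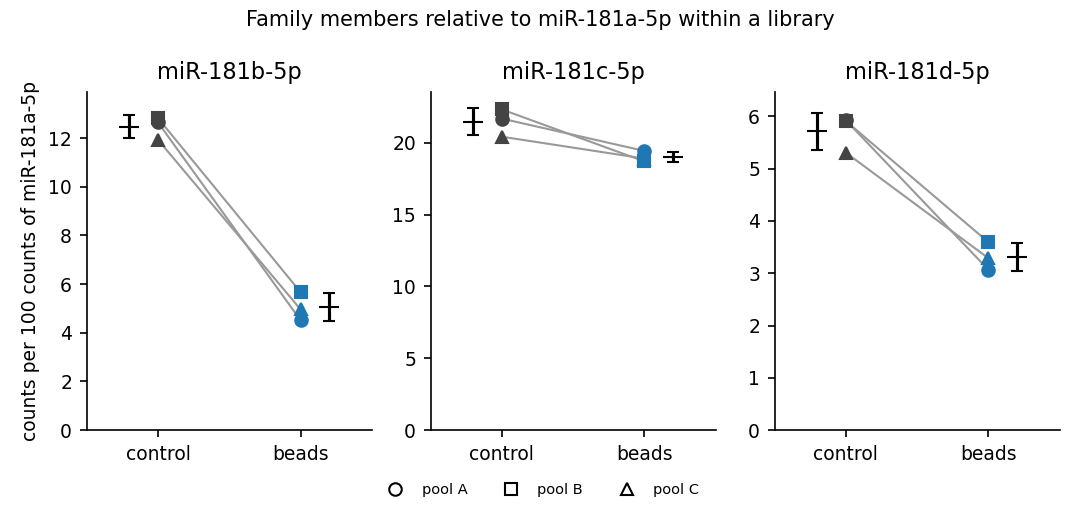
Counts of miR-181b-5p, miR-181c-5p and miR-181d-5p per 100 counts of miR-181a-5p in control and beads libraries, with lines joining the libraries of a serum pool and bars giving mean and SD (n = 3). Every line falls, from a mean of 12.5 to 5.05 for miR-181b-5p, from 21.5 to 19.0 for miR-181c-5p and from 5.71 to 3.31 for miR-181d-5p.

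The ratio of miR-181b-5p to miR-181a-5p also varied more between pools after beads than before. Its SD of 0.055 in control libraries was below the counting error of a single library, 0.079 on the log2 scale. In beads libraries the SD was 0.17 and the counting error 0.044. The ratio of miR-181c-5p to miR-181a-5p went the other way, with SDs of 0.065 in control and 0.029 in beads libraries. For miR-181d-5p to miR-181a-5p they were 0.091 and 0.11. The miRNAs together also exceeded sampling noise by more in beads libraries, which are deeper. Chi-square per degree of freedom was 12.3 to 20.5 in beads and 1.37 to 4.27 in control. The ratio of miR-181b-5p to miR-181a-5p was lowest in pool A and highest in pool B, the pools with 40.5% and 26.6% of tRNA among their counts. In pool C, with the highest tRNA share of 46.5%, the ratio lay between them.

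As a whole the family made up 1.72%, 1.67% and 1.64% of the miRNA counts in control pools A, B and C, and 1.62%, 1.47% and 1.49% in the beads libraries. The libraries of the groups did not overlap (means 1.67% ± 0.041 and 1.52% ± 0.0800, SD, n = 3), and the ratio of beads to control was 0.910. The gap was narrow, since control pool C had 1.64% and beads pool A 1.62%, with Wilson intervals that overlap. Of the family's counts, miR-181a-5p made up 71.6% ± 0.913 in control and 78.5% ± 0.317 in beads libraries (SD, n = 3). The share of miR-181b-5p was 8.92% ± 0.225 in control and 3.96% ± 0.442 in beads libraries. miR-181c-5p held 15.4% ± 0.499 and 14.9% ± 0.347, and miR-181d-5p 4.09% ± 0.204 and 2.60% ± 0.198. The shares of miR-181a-5p, miR-181b-5p and miR-181d-5p did not overlap between the groups, while those of miR-181c-5p did. Such shares have no counterpart over all miRNAs, so nothing is read from how many overlapped. They add up to the whole, and the CPM of miR-181a-5p was nearly unchanged. Its higher share thus restates the lower levels of the other members.

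The second comparison asks the same of depletion with RNase H, where few counts remained. miR-181a-5p had 12, 26 and 7 counts in pools A, B and C, or 5882, 13151 and 5838 CPM. At the mean control level, 24.5, 23.7 and 14.4 counts would have been seen at these depths, which gives ratios of 0.491, 1.097 and 0.487. Pools A and C were thus similarly low and pool B was not. The counting interval of pool A lay below the control level, while that of pool C reached just to it (upper end of the ratio 1.003). Summed over the pools, 45 counts stood against 62.6 (ratio 0.719, exact Poisson 95% interval 0.525 to 0.963 for counting error only). The edgeR log2 fold change, from the fit over 138 miRNAs, was -0.59 ± 0.24 (SE), while the median over all 138 was -0.19.

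The other members had between 0 and 6 counts per RNase H library. miR-181c-5p had 3, 4 and 6 counts, a sum of 13 against 13.4 at the control level (ratio 0.968, exact Poisson 95% interval 0.516 to 1.66). miR-181b-5p had 0, 2 and 3 counts, a sum of 5 against 7.80 (ratio 0.641, interval 0.208 to 1.5). In pool A, 0 of 2040 counts allows a level of up to 1471 CPM when the limit is set at 3 counts, and the exact Poisson interval reaches 3.69 counts, above the 3.05 counts at the control level. miR-181d-5p had 2, 2 and 1 counts, a sum of 5 against 3.57 (ratio 1.40, interval 0.454 to 3.26).

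With the level of the beads libraries, 3.14 counts of miR-181b-5p would have been seen in the 3 RNase H libraries together, against 7.80 with the control level. The 5 counts seen lie between these values, and their counting interval of 1.62 to 11.7 holds both. These counts thus do not tell a lowering of the size seen for miR-181b-5p with beads from the control level. The log2 fold changes were -0.75 ± 0.65 for miR-181b-5p, -0.16 ± 0.41 for miR-181c-5p and 0.37 ± 0.66 for miR-181d-5p (edgeR, SE). The 95% interval for miR-181b-5p, -2.03 to 0.52, includes the value found with beads. Both comparisons use the same control libraries.

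In edgeR's test of RNase H against control, 0 of 4 members had an adjusted p below 0.05, against 11.6% of the 138 miRNAs tested (6.52% raised and 5.07% lowered). DESeq2 also called 0 of 4, against 15.5% of the 207 miRNAs it tested. At an unadjusted p below 0.05 edgeR had 1 of 4, miR-181a-5p, against 23.9% of the 138. Whether this member passed in edgeR's test depended on pool B. Without pool B the log2 fold change of miR-181a-5p was -1.31 ± 0.27 (SE), and the member passed the threshold. Of all 140 miRNAs tested without pool B, 30 passed, 22 of them lowered, and the median log2 fold change was -0.46. Without pool A the log2 fold change of miR-181a-5p was -0.18 and without pool C -0.61, and neither passed. Of all miRNAs tested, 8 of 144 passed without pool A and 4 of 140 without pool C. As the members were picked with these counts in view, nothing is read from these calls. The groups did not overlap for 1 of 4 members (miR-181d-5p, higher), on counts of 1 or 2, while 12.3% of the miRNAs tested had higher and non-overlapping groups. Lower and non-overlapping groups were seen for 0 of 4 members and 28.3% of the miRNAs tested.

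**Figure D4:**
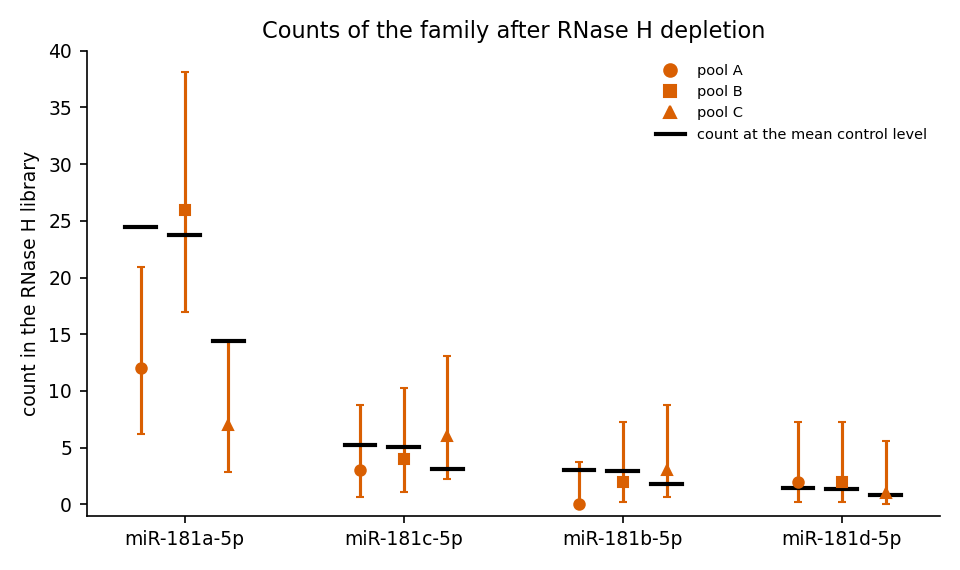
Counts of the 4 members in the 3 RNase H libraries with exact Poisson 95% intervals, and black lines at the count that the mean control level would give at the depth of each library. The interval for miR-181a-5p lies below the line in pool A (12 counts against 24.5), reaches just to it in pool C and holds it in pool B, and the intervals of the other 3 members hold the line in every pool.

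The miRNAs whose pattern was most like that of miR-181a-5p over the 6 control and beads libraries were MIMAT0000135 (Pearson's r = 0.903), MIMAT0003454 (r = 0.761) and MIMAT0000515 (r = 0.713), among 131 others with a mean of at least 100 CPM in control libraries. These r are on log2(CPM + 1), are the highest of many, and come from libraries that share pools and groups, so they carry no test. The other members of the family were at rank 10 (miR-181c-5p, r = 0.583), rank 55 (miR-181d-5p, r = 0.033) and rank 61 (miR-181b-5p, r = -0.007) of the same list.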

How the data were processed

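Small RNA of 9 mouse serum libraries was analysed from 18 deposited files. Per the study's methods, the authors trimmed adapters (Cutadapt 1.8.1), kept reads of at least 15 bases with a quality score of 20 in 80% of bases (FASTX-Toolkit 0.0.14), mapped them to GRCm38 without mismatches (Bowtie 1.1.2) and annotated them by position (miRBase 20, UCSC, Ensembl 84). The deposited values are raw counts per mature miRNA or per distinct sequence of another small RNA class, from 1 read, without normalization. Reads with a sequencing error or an untemplated 3′ base are lost, which can differ between members.

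The members and lists were chosen with earlier results of these data known. Counts were divided by the miRNA sum of each library. The fits across all miRNAs used edgeR 4.0.16 in R 4.3.3 (TMM, filterByExpr, quasi-likelihood test, Benjamini-Hochberg adjustment, threshold 0.05), with only the groups compared, and were tested on simulated data. A standard error is the fold change over the root of the F statistic, and a 95% interval of a fold change is 1.96 standard errors on each side. Ratios, Wilson and exact Poisson intervals were computed in Python 3.11.15 (SciPy 1.17.1). DESeq2 1.42.0, other scalings, filters, a pool block and leaving out each pool were alternatives. The labels pair the libraries by serum pool. For each miRNA the distance of a library from its group mean was compared within a pool, and r was 0.032 to 0.16 for beads and -0.090 to 0.062 for RNase H. No 2 libraries of a group agreed within sampling noise. Chi-square per degree of freedom was 1.37 to 4.27 in control, 12.3 to 20.5 in beads and 2.70 to 6.66 in RNase H libraries. Named were the 4 members and the 3 miRNAs most correlated with miR-181a-5p.

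The sources used here pair hardly any other accessions with names, too few for the planned sets. The 3p arms of the miR-181 hairpins and the lists of lymphoid and myeloid, cell type marker and other seed family miRNAs were therefore not analysed here. The ratio of miR-181d-5p to miR-181a-5p was added after the data were seen.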

Additional observations from a re-analysis of the deposited data

How the results depend on the processing

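Of 72 alternative fits of the 4 members, 54 kept direction and side of the threshold, 6 passed it where they had not before and 12 changed sign. The members were picked with these scaled counts in view, so nothing is read from whether their calls held. For beads, miR-181b-5p and miR-181d-5p stayed lowered and called in each alternative except when all annotated counts, tRNA included, served as library size. With beads, that scaling carries the depletion of tRNA into every miRNA. The log2 fold changes of miR-181b-5p, miR-181c-5p and miR-181d-5p were then 2.02, 3.14 and 2.54, against a median of 3.37 over all miRNAs. This left miR-181b-5p at -1.34 and miR-181d-5p at -0.83 relative to that median. In RNase H libraries the tRNA share was lower as well, but so was the miRNA share. MiRNAs made up 1.27%, 4.18% and 1.51% of all annotated counts there (pools A, B and C), against 4.92%, 6.72% and 6.37% in control. For RNase H this scaling gave miR-181d-5p -1.21, and miR-181a-5p, miR-181b-5p and miR-181c-5p passed, at -1.76, -2.30 and -1.66. The median over all miRNAs tested was then -1.70, and 51 of 143 passed, 47 of them lowered. This scaling took the ratio of the family share to control from 0.910 to 9.12 for beads and from 0.790 to 0.345 for RNase H. The calls over all miRNAs went from 82 of 307 to 332 of 332 for beads and from 16 of 138 to 51 of 143 for RNase H. The other changes of sign were in values that were not called. For beads, miR-181a-5p had -0.047 with DESeq2 size factors, -0.039 with DESeq2, -0.031 with 9 libraries fitted together and -0.0090 to 0.031 when a pool was left out. For RNase H, miR-181c-5p had 0.0597 with DESeq2 size factors and 0.0606 with DESeq2, and leaving out a pool gave -0.85 to 0.32 for miR-181c-5p and -1.87 to 0.11 for miR-181b-5p. With DESeq2 size factors, miR-181c-5p also passed for beads, at a log2 fold change of -0.22. Over all miRNAs, DESeq2 called 32 for RNase H, and leaving out a pool gave 4 to 30 (4 without pool C, 8 without pool A and 30 without pool B), for which the cause was not tested. For beads, leaving out a pool gave 65 to 75 calls. Blocking on the pool gave 91 calls for beads and 12 for RNase H and changed no call of a member. A pseudocount took the RNase H difference of the log2 ratio of miR-181d-5p to miR-181b-5p from 0.33 to 1.49, on counts of 0 to 3. Depth limits the RNase H values, where 3 counts correspond to 1471 to 2502 CPM.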
